A study of Sus scrofa with 4 samples.

Results

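DEFB119 and DEFB123 are 2 of the 31908 features counted in single cells of pig testis (Sus scrofa) at 7, 30, 60 and 90 days of age. DEFB123 (ENSSSCG00000007226) carries its symbol in the deposited feature table. DEFB119 has no symbol there, and the feature ENSSSCG00000007221 was taken as DEFB119 from a reference table of gene names. Both were chosen by their UMI levels in earlier results of these same data, which showed them high in Sertoli cells and higher with age, so their levels are given here as a description, with no test.

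Beta-defensins are small secreted cationic peptides held in shape by disulfide bonds between conserved cysteines, and many of them damage microbial membranes. Mammals carry large clusters of these genes, and many are transcribed mainly in the testis and epididymis, where several have been tied to sperm maturation and to the immune protection of the tract. DEFB119 and DEFB123 belong to such a reproductive cluster. Sertoli cells are the somatic cells of the seminiferous tubule that hold and feed the germ cells, and that seal the tubule with the blood-testis barrier as they mature.

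Each age was 1 library of suspended testis cells made with 10x Chromium 3′ chemistry, with no treatment or mutation in the labels, which give no breed and no number of animals. With 1 library per age, age cannot be told apart from library or animal, and nothing that differs between ages was checked in replicates. The deposited counts are unique molecular identifiers (UMIs), each standing for 1 captured RNA molecule. The libraries held 96133720, 77992845, 45717373 and 64372068 UMIs in order of age, over 15896, 19373, 16839 and 17494 barcodes. The labels name 86453 captured cells, the files hold 69602 barcodes, and 49439 cells remained after filters and doublet removal. Any pair of libraries shared between 78 and 115 barcodes, at most 0.657% of a library. Levels are UMIs per 1000000 UMIs of a cell class (CPM), and every interval is an exact 95% interval that covers counting error only.

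Cell classes were rebuilt from marker genes, with all features named DEFB or SPAG11 kept out of the clustering, and their names therefore end in -like. The Sertoli-like class held 6340, 5702, 2868 and 2164 cells in order of age. Of 10 Sertoli markers with a feature, 9, 10, 10 and 9 in order of age were higher in this class than in all other named classes together. The exception was NR5A1, a steroidogenic transcription factor that Leydig cells also use, with 27.6 CPM in the class against 31.4 CPM outside it at 7 days, and 20.1 against 21.5 CPM at 90 days. Different clusters made up most of the class at each age. Cluster 0 held 4758 of the 7-day cells, cluster 1 held 4448 of the 30-day cells, cluster 5 held 2556 of the 60-day cells and cluster 8 held 2158 of the 90-day cells. At 60 days a further 4587 shallow cells with markers of several classes formed cluster 2, which was left unnamed. At 90 days a further 2187 cells formed cluster 7, left unnamed for a low marker score. Unnamed cells enter no value given for the named classes.

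DEFB119 was nearly undetected in Sertoli-like cells at 7 days and reached its highest level of the 4 ages at 90 days. The 7-day library stood at 2.81 CPM (2.32 to 3.37), the 30-day library at 58.8 CPM (55.9 to 61.8), the 60-day library at 213 CPM (206 to 220) and the 90-day library at 1565 CPM (1545 to 1586). These levels rest on 116, 1528, 3500 and 21610 UMIs. No 2 of the 4 intervals overlapped, and each library stood above every younger one.

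DEFB123 was already present at 7 days and covered a smaller range. Its Sertoli-like level was 18.6 CPM (17.3 to 19.9) in the 7-day library, 84.6 CPM (81.1 to 88.2) in the 30-day, 170 CPM (163 to 176) in the 60-day and 1026 CPM (1009 to 1043) in the 90-day library. The UMIs behind these levels numbered 767, 2199, 2788 and 14167. The order of the ages was the same as for DEFB119, again with intervals that did not overlap.

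Between 7 and 90 days the level of DEFB119 in Sertoli-like cells differed 558-fold (465 to 675), a log2 ratio of 9.12 (8.86 to 9.40). The level of DEFB123 differed 55.3-fold (51.4 to 59.5), a log2 ratio of 5.79 (5.68 to 5.90). Both genes were at least 1.5-fold higher at 90 days with an interval that excluded no change, as were 41.5% of the 19480 features with at least 10 UMIs over both libraries, whose median log2 ratio was 0.44. A larger log2 ratio than that of DEFB119 was seen in 452 features (2.32%), and a larger one than that of DEFB123 in 819 (4.20%). Trimmed-mean (TMM) scaling lowered the median of all features by 0.48 to -0.04, and 29.7% of features were then higher and 28.8% lower, against 41.5% and 16.5% without it. Relative to the median of all features, DEFB119 lay 8.68 and DEFB123 5.35 higher on the log2 scale. In all other named classes together the log2 ratio was 9.33 (8.56 to 10.24) for DEFB119 and 6.47 (6.18 to 6.77) for DEFB123. Those classes held 13 DEFB119 and 96 DEFB123 UMIs at 7 days. The counts outside the Sertoli-like class thus also differed between these ages, and for DEFB123 the ratio was larger there. The part of free RNA or of Sertoli cell fragments in those counts was not tested, so no change in the other cells themselves is read from them.

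Markers of later germ cells were also higher in the 90-day Sertoli-like class. The summed level of 9 spermatid markers there was 0.460, 0.655, 1.34 and 1532 CPM in order of age, with 4, 5, 3 and 0 of the 9 at no UMI, and TNP1, a transition protein of spermatid chromatin, went from 0.0242 CPM at 7 days to 677 CPM at 90 days. The summed level of 9 spermatocyte markers was 9.90, 9.66, 12.3 and 85.0 CPM. At 90 days all 18 of these markers were lower in Sertoli-like cells than in the other named classes together. TNP1 stood at 677 against 3212 CPM. Those classes include the spermatocyte-like and spermatid-like cells, which were named by these same markers. The summed level of the 10 Sertoli markers in the class was 8168, 6910, 5371 and 2648 CPM in order of age. The part of germ cell RNA in the levels of both defensins was not tested.

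The steps between neighbouring ages were unequal. From 7 to 30 days the level of DEFB119 was 20.9-fold higher (17.3 to 25.5) and that of DEFB123 4.56-fold higher (4.20 to 4.96), where 13.1% of 18296 features were at least 1.5-fold higher by the same rule. From 30 to 60 days the step was the smallest for each gene, at 3.62-fold (3.41 to 3.85) for DEFB119 and 2.0-fold (1.89 to 2.12) for DEFB123, with 16.9% of 17650 features past the rule. From 60 to 90 days the step was 7.35-fold (7.10 to 7.62) for DEFB119 and 6.05-fold (5.81 to 6.31) for DEFB123, with 31.3% of 18738 features past it. The intervals of the 2 genes did not overlap at any of the 3 steps, and DEFB119 had the larger ratio each time. The 60-day values depend on where the mixed cluster is placed: with its cells added to the Sertoli-like class, a choice made after seeing the data, the log2 step from 30 to 60 days was 1.65 for DEFB119 and 0.81 for DEFB123, and that from 60 to 90 days 3.08 and 2.80.

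**Figure D1:**
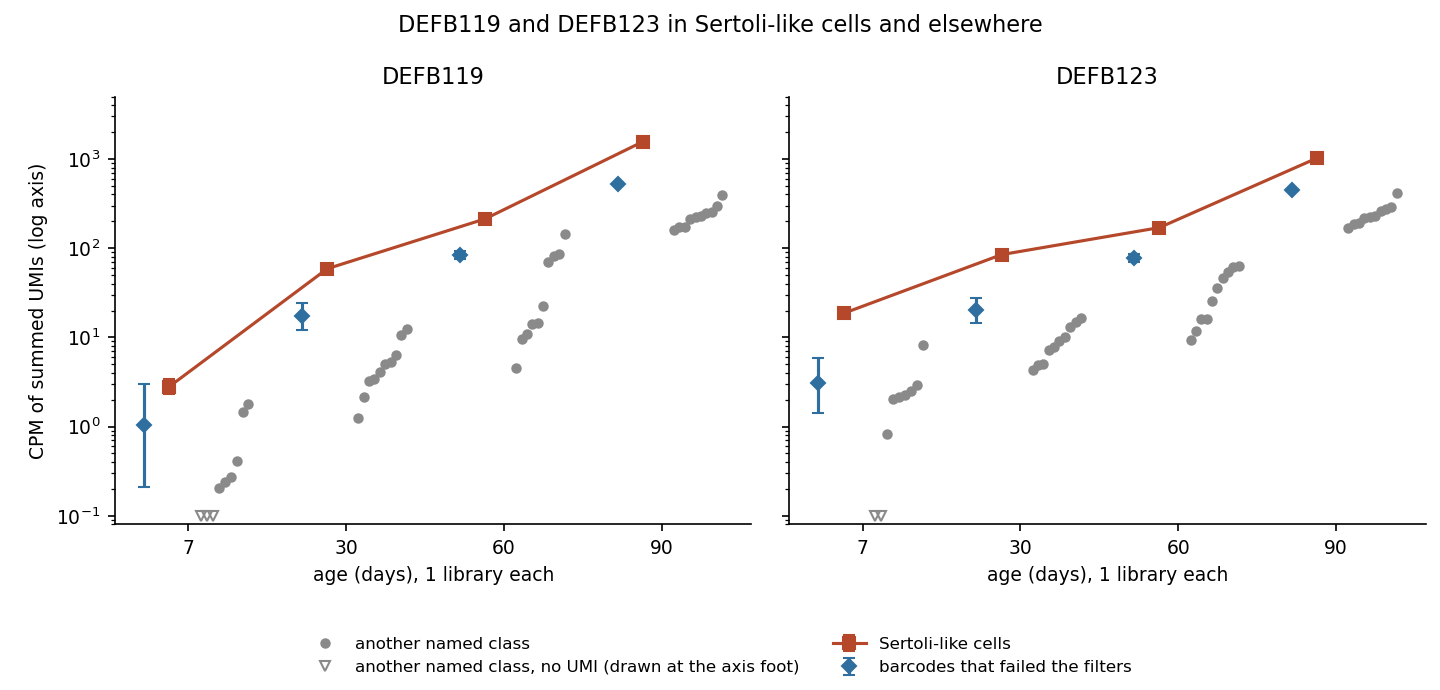
Level of DEFB119 (left) and DEFB123 (right) at each age, as UMIs per 1000000 (CPM) on a log axis. Squares are Sertoli-like cells, grey points the other named classes with at least 50 cells, open triangles classes with no UMI, and diamonds the barcodes that failed the cell filters; bars are exact 95% Poisson intervals. Of the named classes, Sertoli-like cells stand highest at every age, and at 90 days they reach 1565 CPM of DEFB119 and 1026 CPM of DEFB123 while the other classes reach at most 390 and 418 CPM.

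Within the class, the levels at 90 days came from most of the cells and not from a few. A 90-day Sertoli-like cell held a median of 7 DEFB119 UMIs, with quartiles of 1 and 15 and a highest count of 84, and a median of 3 DEFB123 UMIs, with quartiles of 1 and 10 and a highest count of 62. At 7, 30 and 60 days the median cell held none of either gene. The tenth of cells with the most UMIs held 34.5% of all DEFB119 UMIs at 90 days, against 58.9% at 60 days and 75.2% at 30 days. At 7 days 106 of 6340 cells, or 1.67% (1.37 to 2.02%), held a DEFB119 UMI, and 10.8% (10.1 to 11.6%) held a DEFB123 UMI.

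Sertoli-like cells differed in depth between ages, with medians of 5514, 3683, 5411 and 5551.5 UMIs, so each cell was also thinned to 2000 UMIs. Shallower cells were left out, 122, 360, 308 and 617 of them in order of age. At this depth the share of cells with a DEFB119 UMI was 0.611% (0.433 to 0.838%), 8.61%, 24.7% and 90.4% (88.9 to 91.9%) in order of age. For DEFB123 it was 3.68% (3.23 to 4.18%), 13.7%, 24.8% and 78.0% (75.8 to 80.0%). The shares of the 2 genes were close at 60 days, whereas more cells held DEFB123 at 7 and 30 days and more held DEFB119 at 90 days. In all other named classes together, at median depths of 3858 UMIs at 7 days and 2039 UMIs at 90 days before thinning, the thinned share at 7 days was 0.172% for DEFB119 and 0.306% for DEFB123. At 90 days it was 32.1% and 33.5%, so a UMI of either gene in a 90-day cell does not by itself mark a Sertoli-like cell.

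**Figure D2:**
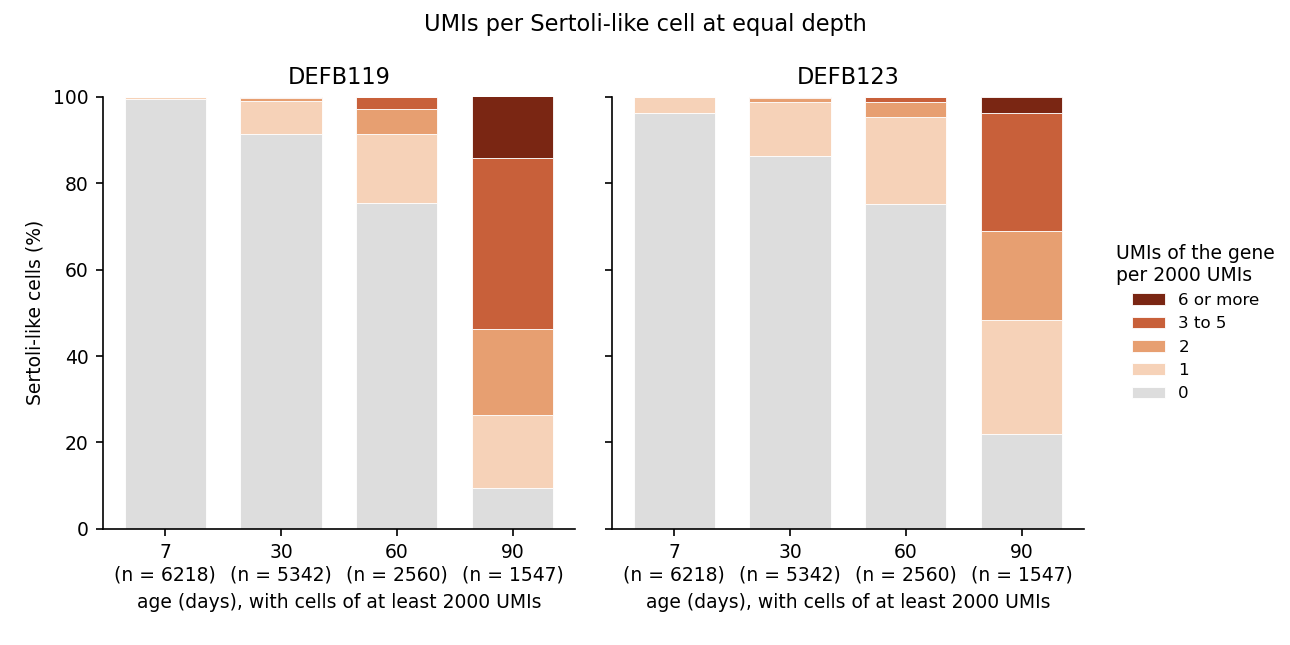
Sertoli-like cells by their number of DEFB119 (left) and DEFB123 (right) UMIs after each cell was thinned to 2000 UMIs, in percent of cells at each age; n is the number of cells deep enough. At 90 days 14.4% of cells held 6 or more DEFB119 UMIs and 3.62% held 6 or more DEFB123 UMIs, against 0.0781% and 0.0391% at 60 days.

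Both genes were found in the same cells more often than their separate shares give at 30 and 60 days. At 90 days 1624 of 2164 Sertoli-like cells (75%) held both, 260 held DEFB119 alone, 132 held DEFB123 alone and 148 held neither. After thinning, 1103 of 1547 cells held both, where the product of the 2 shares gives 1091. Shares of 90.4% and 78.0% leave little room for an excess, so the 90-day excess is not compared with that of younger ages. At 60 days 205 of 2560 thinned cells held both against 157 from the product, and at 30 days 83 of 5342 against 63.1. At 7 days only 1 thinned cell held both. Cells share a library, so these counts carry no test.

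The depth of a cell moved with its level at 3 of the 4 ages, when the cells of each age were ordered by depth and split into 4 groups of equal size. In the shallowest group of 90-day Sertoli-like cells, of 1000 to 1712 UMIs, DEFB119 stood at 832 CPM, and in the deepest, of 9075 to 44068 UMIs, at 1694 CPM. DEFB123 went from 579 to 1211 CPM between the same groups. In the 30-day library the shallowest and deepest groups held 24.8 and 77.3 CPM of DEFB119 and 61.0 and 97.4 CPM of DEFB123. In the 60-day library DEFB119 was lowest in the second shallowest group, at 123 CPM, and highest in the deepest, at 297 CPM. The 7-day library showed no such gradient, with DEFB119 between 2.62 and 2.88 CPM in all groups. Within the deepest groups alone, DEFB119 stood at 2.84, 77.3, 297 and 1694 CPM in order of age. The part of depth in the spread among cells of 1 age was not tested.

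Dividing Sertoli-like cells, those with UMIs of at least 3 of 10 cell-cycle genes, made up 23.8%, 5%, 4.81% and 8.83% of the class in order of age. Dividing cells were deeper at every age, with medians of 9739 against 5215 UMIs at 90 days, and the Sertoli-like cluster led by cell-cycle genes, cluster 11, held 1319, 246, 90 and 0 cells, so no order of the ages is read from these shares. By this rule, dividing and other cells of the same library differed little beside the differences between ages. DEFB119 was lower in dividing than in other cells of the 60-day library, 156 against 217 CPM, which is a log2 ratio of -0.48 (-0.70 to -0.26). In the 90-day library the levels were 1502 and 1576 CPM, with a log2 ratio of -0.07 (-0.13 to -0.01), and at 7 and 30 days the interval included no difference. DEFB123 gave log2 ratios between -0.10 and -0.01 at the 4 ages, each with an interval that included no difference. For DEFB119 the gap between cluster 11 and the main cluster was wider at 30 and 60 days. Cluster 11 stood at 30.4 CPM (21.7 to 41.4) at 30 days, against 68.5 CPM in cluster 1 and 21.3 CPM in cluster 0. At 60 days it stood at 95.7 CPM (73.7 to 122), against 222 CPM in cluster 5. At 7 days it stood at 2.37 CPM (1.56 to 3.45), against 2.98 CPM in cluster 0.

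DEFB119 and DEFB123 UMIs shifted in their balance as age increased. How well each transcript is captured was not measured, so the balance is compared between ages and classes and not read as a level of 1 gene against the other. Of the UMIs of both genes in Sertoli-like cells, the DEFB119 share was 13.1% (11 to 15.5%), 41.0% (39.4 to 42.6%), 55.7% (54.4 to 56.9%) and 60.4% (59.9 to 60.9%) in order of age. The ratio of DEFB119 to DEFB123 UMIs was 0.151, 0.695, 1.26 and 1.53 in order of age, a difference of 10.1-fold (8.29 to 12.3) between 7 and 90 days.

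The balance in other classes followed that of Sertoli-like cells in part. At 90 days the share of DEFB119 in the 10 other classes lay between 44.1% in macrophage or monocyte-like and 52.6% in spermatocyte-like cells, and all 10 intervals lay below that of Sertoli-like cells. In barcodes that failed the filters it was 53.8% (52.6 to 55.1%). At 60 days 3 of 10 classes had intervals wholly below the Sertoli-like one, and Leydig-like cells had one above it, at 70.5% (60.8 to 79%) from 74 DEFB119 and 31 DEFB123 UMIs. At 7 days germ cells of unresolved stage held 1 DEFB119 and 34 DEFB123 UMIs, a share of 2.86% (0.0723 to 14.9%) that overlaps the Sertoli-like interval.

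**Figure D3:**
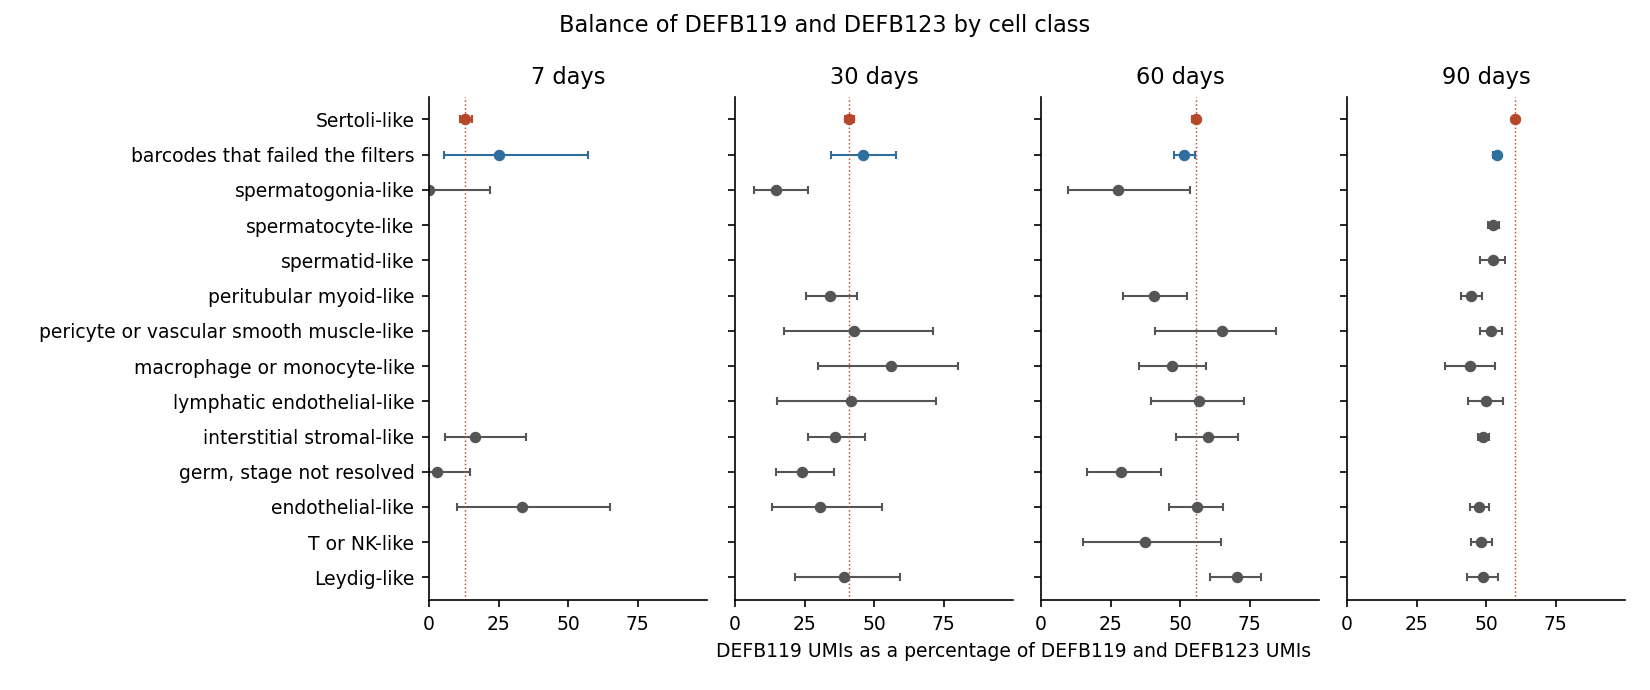
DEFB119 UMIs as a percentage of DEFB119 and DEFB123 UMIs together, by cell class and age, for classes with at least 50 cells and at least 10 UMIs of both genes; bars are exact 95% binomial intervals and the dotted line marks the Sertoli-like value. The Sertoli-like value is 13.1% at 7 days and 60.4% at 90 days, and at 90 days every other class lies left of the line.

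Sertoli-like cells held most UMIs of both genes although they were a falling share of the cells. They were 51.5%, 38.3%, 26.5% and 19.0% of the cells used, in order of age. Of the DEFB119 UMIs they held 89.9% (83.4 to 94.5%), 90.2%, 69.8% and 77.2% (76.7 to 77.7%). For DEFB123 these shares were 88.7%, 87.3%, 69.2% and 68.4%. They depend on how many cells enter the class: when each cell was typed on its own markers they were 37.2% for DEFB119 and 33.9% for DEFB123 at 90 days, and at a clustering resolution of 2 they were 55.0% and 57.7% at 7 days. At 60 days the unnamed mixed cluster held 1201 of the 5013 DEFB119 UMIs and 965 of the 4028 DEFB123 UMIs, at 133 CPM (126 to 141) and 107 CPM (100 to 114).

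Outside the Sertoli-like class both genes were low at 7 days and present in every class at 90 days. At 7 days DEFB119 had no UMI in 3 of 9 other classes. In spermatogonia-like cells 0 of 223 cells held one, with an interval that reaches 0.614 CPM. The highest of the 9 was 1.81 CPM in lymphatic endothelial-like cells, from 1 UMI. At 30 days the 10 other classes lay between 1.25 CPM in spermatogonia-like cells and 12.5 CPM in pericyte or vascular smooth muscle-like cells. At 60 days they ran from 4.53 CPM in spermatogonia-like cells to 145 CPM (114 to 182) in Leydig-like cells, named for the steroid-producing cells of the interstitium. Of these 188 Leydig-like cells, 120 lay in cluster 25, a shallow cluster whose second-ranked marker set was Sertoli. Its mean log2 fold of Leydig markers was 1.775, against 6.34 in cluster 15, which held 67 of them. At 90 days the range was 159 CPM in Leydig-like cells to 390 CPM (350 to 434) in T or NK-like cells, with a median of 229 CPM. The 2199 unnamed cells of the 90-day library are outside this range and stood lower, at 111 CPM (107 to 117).

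DEFB123 had no UMI in 2 of 9 other classes at 7 days. Germ cells of unresolved stage were highest among the 9, at 8.23 CPM (5.70 to 11.5) from 34 UMIs, where interstitial stromal-like cells stood at 2.03 CPM (1.31 to 3.0) and spermatogonia-like cells at 2.50 CPM (1.40 to 4.12). Those germ cells had a median of 12471 UMIs, and after thinning 1.37% (0.374 to 3.47%) of them held a DEFB123 UMI against 3.68% of Sertoli-like cells. At 30 days the other classes lay between 4.32 and 16.6 CPM and at 60 days between 9.39 and 63.9 CPM. At 90 days they lay between 167 CPM in Leydig-like and 418 CPM (377 to 463) in T or NK-like cells, with a median of 225 CPM. The unnamed 90-day cells stood below this range as well, at 118 CPM (113 to 123).

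Sertoli-like cells were the highest of the named classes at each age, with a gap to the second that varied. The 80 cells of the unnamed mixed cluster in the 30-day library stood at 69.3 CPM (47.4 to 97.8) of DEFB119, an interval that holds the Sertoli-like level of 58.8 CPM. For DEFB119 the ratio to the second class was 1.55 (0.273 to 61.7), 4.71 (2.16 to 12.9), 1.46 (1.16 to 1.87) and 4.01 (3.61 to 4.47) in order of age. The 7-day ratio includes no difference, since the second class held 1 UMI. For DEFB123 the ratio was 2.25 (1.60 to 3.28), 5.08 (2.58 to 11.8), 2.65 (2.0 to 3.61) and 2.45 (2.21 to 2.73).

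The other classes also held UMIs of the 10 Sertoli markers, and these values moved with those of both defensins in part. In all other named classes together the summed level of the markers was 6.63%, 5.93%, 12.8% and 15.6% of its Sertoli-like level in order of age. DEFB119 stood there at 13.0%, 6.92%, 11.9% and 15% of its Sertoli-like level, and DEFB123 at 14.5%, 10.4%, 13.4% and 23.2%. At 60 days the Leydig-like, endothelial-like, lymphatic endothelial-like and pericyte or vascular smooth muscle-like cells held 35.3%, 26.3%, 24.8% and 36.5% of the marker level. DEFB119 stood in them at 68.3%, 38.2%, 32.9% and 40.9% of its Sertoli-like level. In the 6 other classes at that age the markers lay between 7.75% and 16.2% and DEFB119 between 2.13% and 10.7%. At 90 days the T or NK-like cells, with 1264 UMIs per cell in the median, held 20.5% of the marker level, 24.9% of the DEFB119 level and 40.8% of the DEFB123 level. Leydig-like cells at that age had the highest marker level of the 10 other named classes, at 22.6%, and the lowest levels of both defensins, at 10.1% for DEFB119 and 16.2% for DEFB123. Barcodes that failed the filters held 522 CPM (505 to 540) of DEFB119 and 448 CPM (432 to 465) of DEFB123 at 90 days. The part of free RNA or of Sertoli cell fragments in the levels outside the Sertoli-like class was not tested.

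The fold of the class over the others was below the median of the Sertoli markers for both defensins at 7, 30 and 90 days. At 60 days it was above that median for both. These markers also served to name the class. At 90 days DEFB119 was 6.68-fold higher (6.47 to 6.90) in Sertoli-like cells than in all other named classes together, and DEFB123 4.32-fold higher (4.18 to 4.47). The 10 markers ranged from 0.938-fold for NR5A1 to 10.4-fold for FSHR, the receptor for follicle-stimulating hormone, with a median of 8.32. At 30 days DEFB119 was 14.5-fold higher (12.1 to 17.4) and DEFB123 9.58-fold (8.48 to 10.9), with a marker median of 18.1. At 60 days both lay above the marker median of 7.22, DEFB119 at 8.37-fold (7.45 to 9.44) and DEFB123 at 7.47-fold (6.60 to 8.49), and at 7 days both lay below the median of 16.8, at 7.72-fold and 6.91-fold.

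Over the 43 combinations of class and library with at least 50 cells, the profile most like that of each gene was the other. Among 8942 named genes with at least 50 CPM in 1 combination, Pearson's r of log2(CPM + 1) between DEFB119 and DEFB123 was 0.960. Next for DEFB119 came AQP8, a water channel, at 0.933, then PNMT, the enzyme that makes adrenaline from noradrenaline, at 0.888, CLEC12B, a C-type lectin receptor, at 0.884, and MRO at 0.864. For DEFB123 the order was AQP8 at 0.942, CLEC12B at 0.914, MRO at 0.910 and PLAC1, a gene named for its placental transcript, at 0.874. The combinations share 4 libraries, and 4 of the 43 are Sertoli-like, so these values carry no p.

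Between 30 and 60 days 4 of the 5 genes alike in profile did not share the step of both defensins. In Sertoli-like cells AQP8 stood at 0.0968, 32.8, 31.1 and 294 CPM in order of age, and CLEC12B at 0.484, 51.7, 52.2 and 696 CPM. MRO stood at 55.1, 209, 170 and 524 CPM and PLAC1 at 34.3, 123, 82.1 and 337 CPM. PNMT had no UMI at 7 days and stood at 2.31, 3.71 and 51.7 CPM at the later ages. DEFB119, DEFB123 and PNMT stood higher at 60 than at 30 days, whereas AQP8, MRO and PLAC1 stood lower and CLEC12B was close to its 30-day level.

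Of the 19 features named DEFB or SPAG11, only these 2 were abundant in the cells counted. Family members without a name could not be counted: 15400 features carry no deposited symbol, and 825 of those were named from the reference table. An unnamed feature listed between DEFB119 and DEFB123 was abundant in Sertoli-like cells and is given under Other observations. The table holds 17 further features named DEFB or SPAG11, an epididymal gene that also encodes defensin-like peptides, and they held 1031 UMIs together over all cells used, against 62948 of DEFB119 and DEFB123. No UMI was found for DEFB136, DEFB108B, DEFB133 and DEFB114. Between 1 and 20 UMIs were found for DEFB113, DEFB110, DEFB129, DEFB127, DEFB125, DEFB115, DEFB116 and DEFB121.

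More than 20 UMIs were found for 5 features: SPAG11 with 624, DEFB128 with 183, DEFB134 with 75 and 2 features named DEFB1 with 74 and 32. SPAG11 was highest at 7 and 30 days in germ cells of unresolved stage, at 7.51 and 11.2 CPM, and DEFB134 at 90 days in spermatid-like cells, at 15.5 CPM. DEFB1 is the constitutive epithelial beta-defensin, and its 2 features differed. The one with 74 UMIs reached 17 CPM in 90-day peritubular myoid-like cells and 1.74 CPM (1.11 to 2.59) in 90-day Sertoli-like cells. The one with 32 UMIs had no UMI in 90-day Sertoli-like cells. It stood at 7.86 CPM in 60-day Leydig-like cells and 9.21 CPM in 90-day macrophage or monocyte-like cells, where that library held 3 UMIs of it. DEFB128 held 155 UMIs in 90-day Sertoli-like cells, of which 152 lay in a single cell. That cell of 2120 UMIs also held 35 SPAG11 UMIs, 1 UMI of DEFB119, 1 of DEFB123 and 1 UMI over all 10 Sertoli markers. Without it DEFB128 stood at 0.217 CPM in the class.

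On Sscrofa11.1, RefSeq places DEFB123 at chr17:35185257-35190686. Its nearest RefSeq neighbours with a feature named here are DEFB121 and REM1. DEFB121, at chr17:35154177-35155772, held 2 UMIs over all cells used. REM1, a small GTP-binding protein gene, lies at chr17:35208344-35218771. DEFB124 lies nearer than REM1 but has no feature of that name, and could be among the features without a symbol. The unnamed feature listed next to DEFB123 is given under Other observations. REM1 stood at 79.1, 52.8, 93.1 and 46.4 CPM in Sertoli-like cells in order of age. HM13, a signal peptide peptidase and the next gene with a UMI, stood at 62.7, 62.6, 55.5 and 53.8 CPM. Neither REM1 nor HM13 followed the order of ages seen for DEFB123. The RefSeq table has no entry named DEFB119, so no position is given for it.

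Other defence proteins of Sertoli-like cells were more often lower than higher at 90 days. Of 16 antimicrobial and innate defence proteins with at least 10 UMIs, 4 were at least 1.5-fold higher at 90 than at 7 days and 9 were lower, with a median log2 ratio of -1.54. Over all features 41.5% were higher and 16.5% lower, and the median was 0.44. The largest decrease at 50 CPM or more was in complement component C3, with 67.5 CPM in the 7-day and 4.06 CPM in the 90-day library and a log2 ratio of -4.06 (-4.46 to -3.68). The 4 that were higher, all below 50 CPM and named after their values were seen, were the pentraxin PTX3 at 1.65 and 44.6 CPM, LEAP2 at 3.94 and 8.04 CPM, LTF at 0.605 and 2.03 CPM and CRP at 0.387 and 1.01 CPM. Of 5 measured receptors reported for beta-defensins, EGFR alone was called, at 7.67 and 13.3 CPM. With TMM scaling the defence proteins gave 2 higher and 9 lower, since LEAP2 and CRP no longer passed, and of the receptors EGFR no longer passed and TLR4 was called lower, from 0.242 CPM at 7 days to no UMI at 90 days.

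Genes linked to Sertoli cell maturity moved with age in the same libraries. Among 16 genes listed for mature Sertoli cells 10 were higher and 1 lower, where 41.5% of all features were higher and 16.5% lower, and the list's median log2 ratio was 1.34. Those with the largest ratios were AQP8 at 11.57 (10.21 to 13.44), the retinoic acid binding protein CRABP1 at 7.80 (7.59 to 8.02), the retinaldehyde dehydrogenase ALDH1A1 at 4.95 (4.86 to 5.04) and ESPN, an actin-bundling protein, at 3.54 (3.42 to 3.65). Of 11 listed for immature Sertoli cells, 1 was higher and 7 lower, and the median was -2.10. AMH, the hormone that regresses the Müllerian duct, went from 2503 to 164 CPM, a log2 ratio of -3.93 (-3.99 to -3.87), and the cyclin CCND2 from 1034 to 6.74 CPM. KRT8, a keratin, stood at 149, 3.35, 256 and 3.11 CPM in order of age, and TNNI1, a troponin subunit, went from 253 CPM to no UMI.

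Among 18 candidate regulators, 9 were higher and 2 lower at 90 days, where 41.5% of all features were higher and 16.5% lower, and the median was 0.61 beside 0.44. WT1 went from 76.7 to 150 CPM, DMRT1 from 72.1 to 112 CPM and SOX9 from 249 to 378 CPM. THRA, a thyroid hormone receptor gene, went from 55.8 to 18.4 CPM, a log2 ratio of -1.60 (-1.79 to -1.41). All 10 measured cell-cycle genes were lower, with a median of -2.16, UBE2C most at -3.94 (-4.21 to -3.68), followed by CENPF at -3.67, TOP2A at -3.08 and PCNA at -1.64. With TMM scaling, which moves every log2 ratio 0.48 downwards, the mature list gave 9 higher and 2 lower and the immature list 0 and 9. The regulators then gave 5 higher and 6 lower, and SOX9, DMRT1 and WT1 no longer passed. Over all features 29.7% were then higher and 28.8% lower.

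**Figure D4:**
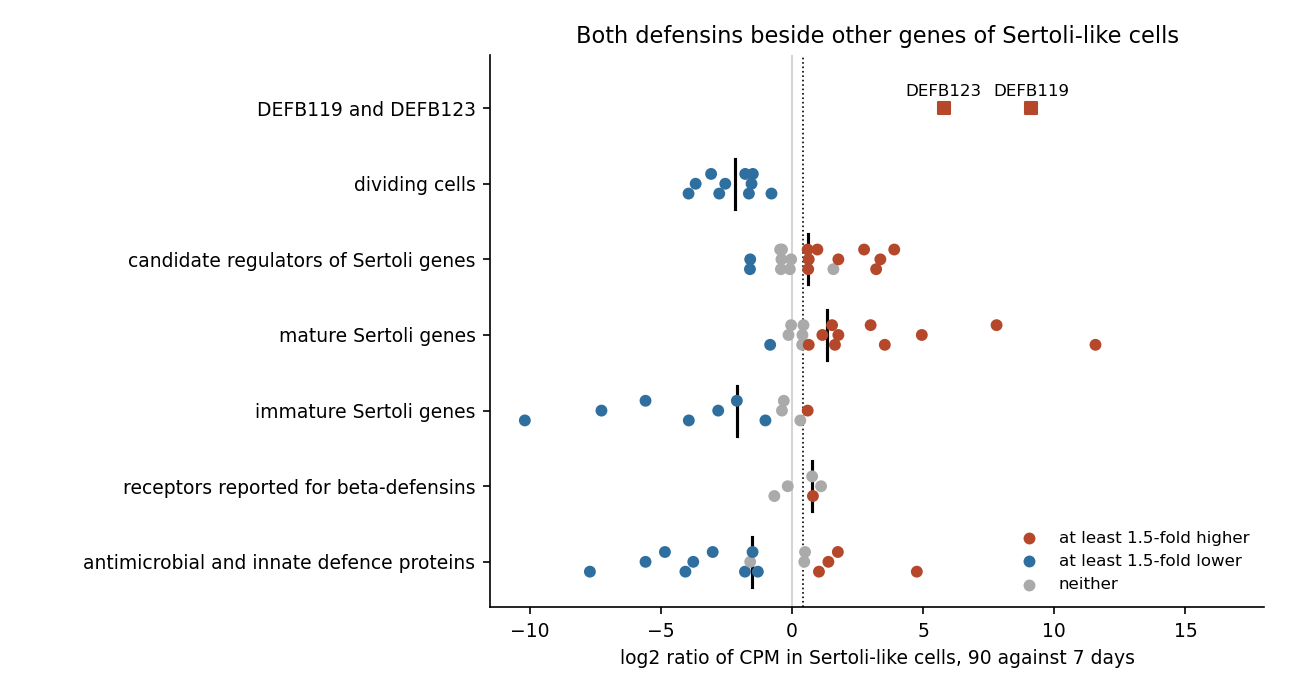
Log2 ratio of CPM in Sertoli-like cells at 90 against 7 days for DEFB119 and DEFB123 (squares) and for the measured members of 6 gene lists (points, with black bars at the list medians); genes with no UMI at one age are set against 3 UMIs. The dotted line is the median of all features, 0.44, and both defensins, at 9.12 and 5.79, lie to the right of all listed genes but AQP8 and, for DEFB123, also CRABP1.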

How the data were processed

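The deposited matrices hold raw UMI counts per feature and barcode, not normalized. Per the submitters' processing notes, bcl2fastq, Cell Ranger and Scanpy 1.7.1 were used with the Sscrofa11.1 genome. The file headers give Cell Ranger as version 5.0.1. Both genes and all gene lists and markers were chosen with earlier results of these data known. Genes alike in profile are the 5 with the highest r, and genes named from a list are up to 4 per direction with the largest ratio, among those reaching 50 CPM in either library.

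Barcodes were kept with at least 1000 UMIs, 500 genes and at most 15% mitochondrial UMIs. Scrublet scored doublets per library, and the highest scores were removed up to an expected 0.8% per 1000 cells. Its automatic threshold was not used, because it marked 0 cells at 60 days. That left 12313, 14895, 10841 and 11390 cells in order of age. Libraries were clustered together without integration in Scanpy 1.11.5, on 2000 variable genes, 30 principal components and 15 neighbours, with Leiden resolution 1 and leidenalg 0.10.2, and without 19 beta-defensin and SPAG11 features. The 31 clusters were named from 18 marker sets by the mean log2 fold of markers over other cells of the same libraries. This score, its thresholds and the rules for leaving a cluster unnamed were set after seeing the data.

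Counts were summed per class and library. Levels carry exact Poisson intervals, shares Clopper-Pearson intervals and ratios conditional binomial intervals, all at 95%. No test was run, since there is 1 library per age. Intervals were checked on simulated data. TMM factors came from edgeR 4.0.16. A gene with no count was set against 3 counts over the class.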

Additional observations from a re-analysis of the deposited data

Results flagged for a closer look

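DEFB119 and DEFB123 were also counted in barcodes that failed the cell filters and entered no class. These levels stood above what a count of 0 allows. DEFB119 stood there at 17.4 CPM at 30 days, 82.9 CPM at 60 days and 522 CPM at 90 days. DEFB123 stood there at 3.08, 20.4, 78.2 and 448 CPM in order of age. At 90 days these barcodes held 3315 DEFB119 and 2846 DEFB123 UMIs, and their levels lay between that of Sertoli-like cells and those of all 10 other named classes for both genes. The source of these UMIs was not tested.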

How the results depend on the processing

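The log2 ratio of 90 against 7 days in Sertoli-like cells kept its sign under all 13 alternatives run for each gene, and lay between 8.64 and 9.25 for DEFB119 and between 5.31 and 5.87 for DEFB123. It left its own counting interval with TMM scaling, at 8.64 for DEFB119 and 5.31 for DEFB123, where the scaling itself takes 0.48 from every ratio. For DEFB123 it also left it as a mean over cells, at 5.45, and with cells thinned to 2000 UMIs, at 5.65, and the cause was not tested. The steps between ages kept their sign as well. The change in the ratio of DEFB119 to DEFB123 UMIs lay between 3.25 and 3.42 on the log2 scale. The mixed 60-day cluster added to the class, and cells of at least 3000 UMIs, were chosen after seeing the data. A planned addition of shallow clusters with Sertoli as their highest score gave no value, since the clustering used here had no such cluster; such clusters arose at resolution 2 and when the 60-day and 90-day libraries were clustered alone, and stayed unnamed there. No paired analysis was possible because each age is 1 library. Depth limits DEFB119 at 7 days most, where Sertoli-like cells held 116 UMIs and the other named classes 13.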

Other observations

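A feature with no name in the tables used here, ENSSSCG00000007219, which the feature table lists between DEFB119 and DEFB123, was also highest in Sertoli-like cells at every age. It was chosen after its values were seen, and whether it belongs to the beta-defensin family was not tested. Its level in Sertoli-like cells was 245, 662, 888 and 848 CPM in order of age, against 17.8, 50.4, 100 and 168 CPM in all other named classes together. Sertoli-like cells held 93.8%, 90.3%, 70.3% and 71.6% of its UMIs. The log2 ratio of 90 against 7 days was 1.79 (1.75 to 1.83), below those of DEFB119 and DEFB123, and its level at 90 days was not above that at 60 days. At 7 days 69.9% of Sertoli-like cells held a UMI of it, where 10.8% held one of DEFB123.

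In the 90-day Sertoli-like cell with 152 DEFB128 UMIs, 4 of 9 spermatid markers were detected, with 8 UMIs, as were 2 of 8 Leydig markers and 2 of 5 markers of rete, efferent duct or epididymal epithelium, with 2 UMIs each set, and 1 of 10 Sertoli markers. It is a single cell of 2164, so it bears on DEFB128 and SPAG11 in that class and not on the levels of DEFB119 and DEFB123.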
